A study of Mus musculus with 8 samples.

Results

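The SSEA-1-positive cells of HV ES cell cultures were compared with and without Venus fluorescence: 2 V+S+ samples against 2 V-S+ samples, 1 of each from clones 5.1 and 16.1, out of 8 samples in the series. The samples were chosen by their labels alone and paired by clone. The other 4 samples were the SSEA-1-negative fractions V-S- and V+S- of the same clones. HV cells are mouse ES cells of the 129/Ola strain that carry an IRES-Venus reporter, built for amplified translation, and a tagged Hex cDNA at the Hex locus, on the BirA-expressing parental line R26 BirA. All 4 fractions carried these alleles and came from cultures in serum and LIF, without feeders on gelatin, sorted by flow cytometry for Venus (V) and SSEA-1 (S) with dead cells excluded. Each clone is 1 clonal line and was hybridised on 1 slide of its own, which means that an effect of clone and one of slide cannot be told apart. Every fraction was sampled once per clone, so the 2 lines are its only replicates.

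In the blastocyst the inner cell mass gives rise to the epiblast, which forms the embryo, and to the primitive endoderm, which forms the yolk sac endoderm. Hex (Hhex) is a homeobox transcription factor of early endoderm, and SSEA-1 is the Lewis X carbohydrate antigen on the surface of undifferentiated mouse ES cells. Naive ES cells express Nanog and Dppa3 (Stella), primed epiblast cells express Fgf5 and Pou3f1 (Oct6), and primitive endoderm expresses Gata6, Sox7 and Dab2. The question asked of this pair of fractions was how far cells that show Venus but keep SSEA-1 differ from those without Venus.

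RNA was labelled with Cy3 and hybridised with a Cy5-labelled universal mouse reference RNA to arrays of 60-base probes. Values are given as the log2 of sample over reference, where a difference of 1 is a 2-fold change, and levels are compared within a probe only. The SD of the difference between the 2 scans of an array lay from 0.074 to 0.088 on this scale, the median Cy3 signal was between 2.36 and 2.87 times the local background, and no spot was saturated. The files give probe identifiers only. The 1997 probes named here take their symbol from the study's list of genes that differed among the 4 fractions of these samples, so counts over named genes are no independent evidence of a direction. The copy of that list used here lacks some rows, so the largest named changes are those among the probes named here. No probe among them was named Hhex, and the sorted gene was therefore not checked. Probes for the ES cell genes Pou5f1 and Nanog passed the scanner's test for signal over background in each of the 4 files of both fractions. Being bulk samples, a lower level in a fraction can be fewer cells of a type or less RNA per cell, and these cannot be told apart.

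Of 29484 probes tested, 1141 were called higher in V+S+ (3.87%) and 515 lower (1.75%), 1656 in all (5.62%). A call needed more than a 1.5-fold change and an FDR of 0.05 in limma, fitted to all 8 samples with clone as a block. The median called rise was 0.74 and the median called fall -0.79, and 158 rises and 108 falls exceeded 2-fold. The calls rest on the pairing by clone. Without the clone term limma called no probe (smallest adjusted p 0.142), with 5514 probes at an unadjusted p under 0.05 against 11084 with it. Under median centring of the arrays in place of loess, 968 probes were called higher and 689 lower, so that 58.4% of the calls were rises against 68.9% here.

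Both clones moved the same way for every one of the 1656 called probes, but by different amounts. A call favours probes that move alike in the 2 clones, so this is no separate replication. Of all tested probes 39.7% were higher and 35.4% lower in both clones. The median rise of the 1141 probes was 0.58 in clone 5.1 and 0.91 in clone 16.1, and the median fall of the 515 probes was -0.48 and -1.07. The difference was the larger in clone 16.1 for 1123 of the probes called higher and 501 of those called lower. Over all probes, 572 were more than 1.5-fold higher and 157 lower in clone 5.1, and 1905 and 1354 in clone 16.1. Of these, 556 were higher and 128 lower in both clones, and none moved past 1.5-fold in opposite directions. With 1 pair of samples a clone, the difference between the clones was not tested. It bears on the counts: leaving out V-S+ of clone 16.1 gave 522 probes higher and 61 lower, and leaving out V+S+ of that clone 576 and 83. Leaving out V-S+ of clone 5.1 gave 1458 and 882, and leaving out V+S+ of that clone 1754 and 985. The V+S+ and V-S+ samples did not overlap for 1055 of the 1141 probes called higher and 482 of the 515 called lower, where 27.6% of all probes lay apart upward and 24.1% downward.

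**Figure D1:**
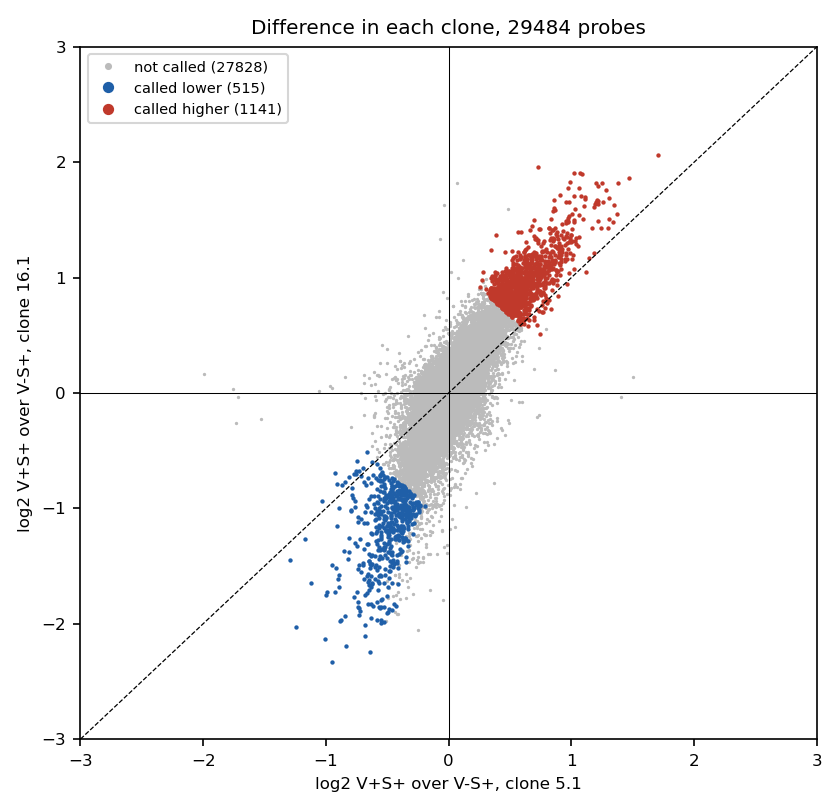
The log2 difference of V+S+ over V-S+ in clone 5.1 (horizontal axis) and in clone 16.1 (vertical axis) for 29484 probes; each point is a probe, red and blue mark probes called higher (1141) and lower (515), and the dashed line marks equal differences. Called probes lie mostly farther from 0 on the vertical axis: the median called rise was 0.58 in clone 5.1 and 0.91 in clone 16.1.

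Of the 1997 named probes, 510 were called higher (25.5%) and 175 lower (8.76%), 34.3% of them, and their median difference was 0.33 against 0.0079 over all tested probes. The counts and medians of the gene lists below are to be read against these shares and this median, since every list member is a named probe. The lists and their members were also chosen with earlier results of these data known. A share or median beyond these is therefore a description and no test of a list. The 12 largest named rises included receptors and surface proteins, transcription factors and secreted factors. Ghr, the growth hormone receptor, rose from -3.62 to -2.37 in clone 5.1 and from -3.17 to -1.35 in clone 16.1, by 1.53 ± 0.12 (SE). Slc39a8, a zinc importer, lay at -0.33 and -0.35 in V-S+ and at 0.95 and 1.42 in V+S+. Cebpd, a C/EBP transcription factor of acute responses, lay at -3.29 and -2.83 in V-S+ and at -1.92 and -1.28 in V+S+. For these 3 genes, between 2.75 and 2.90-fold higher, both V+S+ samples lay above both V-S+ samples. Itga8, the integrin alpha 8 chain, rose from 1.46 to 2.68 and from 1.86 to 3.52. Spon1, a matrix protein of the floor plate, rose from 0.20 to 1.51 and from 0.42 to 1.85, the rise that was most alike in the 2 clones among the 12 (1.30 and 1.43). Fgf5, a growth factor of the primed epiblast, and Pou3f1, a POU factor of the same cells, are described below. The others were Syt13, a synaptotagmin, Dok2, an adaptor of tyrosine kinases, Cysltr1, a leukotriene receptor, Anxa3, an annexin, and Galnt3, which starts O-linked glycans, with rises of between 1.26 and 1.46. All 12 had an adjusted p between 0.00258 and 0.00404, and for all 12 the V+S+ samples lay above the V-S+ samples. The latter was largely set by their choice: 1055 of the 1141 probes called higher lay apart in this way, and 27.6% of all probes. The same limit applies where other called genes below are said to lie apart.

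**Figure D2:**
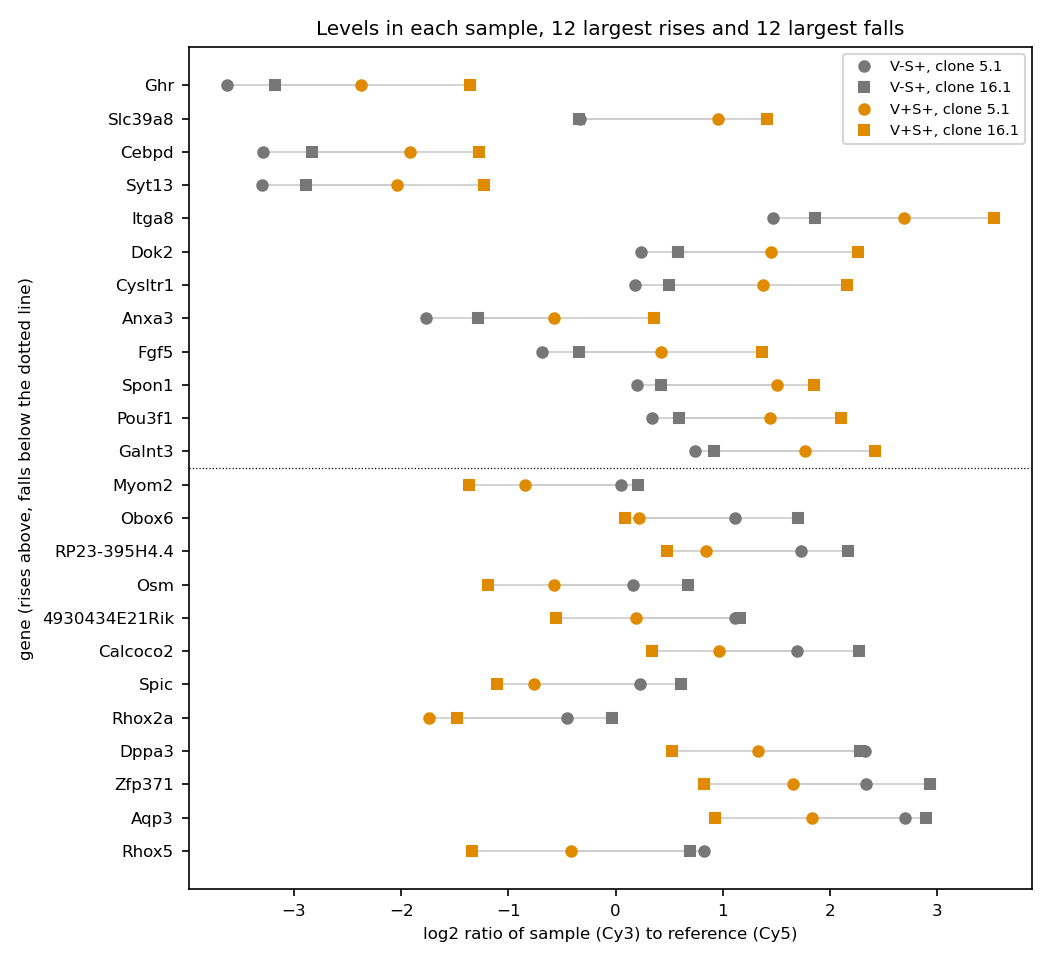
The log2 ratio of sample to reference (horizontal axis) in each of the 4 samples for the 12 named genes with the largest rise (above the dotted line) and the 12 with the largest fall (below it); circles are clone 5.1, squares clone 16.1, grey V-S+ and orange V+S+. For each gene the 2 orange points lie on 1 side of the 2 grey points, and the orange square, clone 16.1, lies farthest out for all but Rhox2a, where the orange circle does (-1.74 against -1.48).

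The 12 largest named falls were led by the homeobox gene Rhox5, which fell from 0.82 to -0.42 in clone 5.1 and from 0.69 to -1.34 in clone 16.1, by 1.63 on the log2 scale (SE 0.20, 3.1-fold). Aqp3, a water and glycerol channel, fell from 2.70 to 1.83 and from 2.89 to 0.93. Dppa3, a maternal factor that protects methylation in the early embryo, fell from 2.32 to 1.33 and from 2.28 to 0.53. Spic, an Ets factor of naive ES cells, fell from 0.23 to -0.76 and from 0.61 to -1.11. The V+S+ and V-S+ samples did not overlap for any of these 4 genes, and the V+S+ sample of clone 16.1 was the lowest. Osm, oncostatin M, a cytokine of the LIF family, fell from 0.16 to -0.57 and from 0.68 to -1.19. The others were Rhox2a, the oocyte homeobox gene Obox6, Zfp371, a zinc finger gene, Calcoco2, an autophagy receptor, Myom2, a protein of the muscle M band, and the gene models 4930434E21Rik and RP23-395H4.4, with falls of between -1.24 and -1.40. Adjusted p over the 12 lay between 0.00342 and 0.0323. Of the 24 genes, Zfp371 differed most between the clones, with a fall of 0.68 in clone 5.1 and of 2.11 in clone 16.1.

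The Rhox cluster is a run of reproductive homeobox genes on the X chromosome in which several members, Rhox2 and Rhox4 among them, are present in many near-identical copies. All 9 named Rhox probes were called lower, with a median of -0.81 and a range from -1.63 to -0.60. Their medians were -0.85 in clone 5.1 and -0.79 in clone 16.1, where all called falls had medians of -0.48 and -1.07, and Rhox5 differed most between the clones (-1.24 and -2.03). Rhox2a fell from -0.45 to -1.74 in clone 5.1 and from -0.04 to -1.48 in clone 16.1. Rhox4d fell from 1.07 to 0.04 and from 1.25 to 0.32, by 0.98 ± 0.08 (SE). Rhox9 fell from 0.92 to 0.01 and from 0.82 to 0.03, and Rhox6 from 1.34 to 0.49 and from 1.25 to 0.48. The V+S+ samples lay below the V-S+ samples for all 9, as they did for 482 of the 515 probes called lower and 24.1% of all probes. Leaving out V-S+ of clone 16.1 left 6 of the 9 called, and leaving out any other of the 4 samples left 8 or 9.

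The 9 Rhox probes are not 9 separate measurements. Their sequences show which of them can take up the transcripts of each other, and the stretch shared by the 5 Rhox4 probes is printed with capitals where a base differs from the Rhox4a probe.
Rhox4a: ttattgcatctctattccctaagcattt
Rhox4c: ttattgcaActctattccctaagcattt
Rhox4d: ttattgcatctctattccctaagcattt
Rhox4f: ttattgcatctctatCccctaagcattt
Rhox4g: ttattgcatctctatCccctaagcattt

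Over these 28 bases the probes carried at most 1 mismatch to Rhox4a, and the Rhox4f and Rhox4g probes were identical in 59 of 60 bases. The Rhox4a and Rhox4c probes were identical in 54 of the 55 bases over which they align. The Rhox4d probe covers an earlier part of the transcript and shared its last 33 bases with Rhox4a. The 5 Rhox4 differences, from -0.98 to -0.60, are therefore uncertain as values of single genes. The probes of the 4 other members shared at most 26 of 60 aligned bases with each other and 23 with the Rhox4 probes. Their first 30 bases are shown for comparison, in lower case throughout because no part of them is singled out.
Rhox5: ttcaagaattcagcaataaagaggtggatt
Rhox2a: atccatgggagtgagtgaagccacagtgca
Rhox6: attttggagcagcacttgagtgccagccct
Rhox9: ggctgatgatgttctgcgaactgccaccga

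Of the 13 named genes of pluripotency and the inner cell mass, 4 were called lower (Dppa3, Spic, Prdm14 and Nanog), none higher and 9 neither, and their median was -0.49. Nanog, the homeobox factor of naive pluripotency, lay at 1.36 and 1.41 in V-S+ and fell to 0.98 in clone 5.1 and to 0.36 in clone 16.1, by 0.72 on the log2 scale (SE 0.15, adjusted p = 0.0213). Prdm14, a PR domain repressor of naive cells and germ cells, lay at 1.38 and 1.52 in V-S+ and fell to 1.01 and 0.37. The V+S+ samples were the lower for both genes. The falls were -0.38 and -0.37 in clone 5.1 against -1.06 and -1.15 in clone 16.1. Under the alternatives run the Nanog difference lay between -0.99 and -0.44, the latter less than 1.5-fold. Tdh, threonine dehydrogenase, lay at 0.68 and 1.25 in V-S+ and at 0.39 and -0.49 in V+S+, and its adjusted p was 0.0660. Pou5f1 (Oct4), the POU factor shared by naive and primed cells, lay at 1.99 and 1.54 in V-S+ and at 2.25 and 1.71 in V+S+, with a difference of 0.22 ± 0.17 (SE, adjusted p = 0.383). The 2 fractions overlapped for Pou5f1. Leaving out V-S+ or V+S+ of clone 16.1 left 1 and 2 of the 13 called lower, and leaving out those of clone 5.1 gave 8 and 7. The count was 2 with the scanner's processed signals or the authors' values and 6 under median centring.

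Of 24 named genes of the germline and of cleavage stages, 11 were called lower and 1 (Tdrd7, a Tudor protein of germ granules) higher, and the median was -0.65. The median lay between -0.905 (scanner's processed signals) and -0.33 (V-S+ of clone 16.1 left out) under the alternatives run. In the 4 samples alone 6 were called lower. Tdrd7 rose by 0.53 in clone 5.1, less than 1.5-fold, and by 0.80 in clone 16.1. Obox6 fell from 1.12 to 0.22 in clone 5.1 and from 1.70 to 0.09 in clone 16.1. Tdrd12, a Tudor protein of the piRNA pathway, fell from 0.42 to -0.14 and from 0.43 to -0.99. Zp3, a protein of the zona pellucida, fell from 1.54 to 1.07 and from 1.72 to 0.22, and Tex19, a germ cell factor, from 2.16 to 1.62 and from 2.11 to 0.75. In all 4 the V+S+ sample of clone 16.1 was the lowest, and the counts depended on it: 2 of the 24 were called lower when either V-S+ or V+S+ of clone 16.1 was left out, and 14 and 11 when those of clone 5.1 were. The cleavage-stage genes Zscan4c, Tcstv1 and Tcstv3 had differences of -0.71, -0.69 and -0.69 with adjusted p between 0.200 and 0.236.

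The primed epiblast list had 7 named genes, of which 3 were called higher, 1 lower and 3 neither. Fgf5 rose from -0.69 to 0.42 in clone 5.1 and from -0.34 to 1.36 in clone 16.1, by 1.41 ± 0.13 (SE). Pou3f1 rose from 0.34 to 1.44 and from 0.59 to 2.10, by 1.30 ± 0.11 (SE). Both stood among the 12 largest named rises, and their V+S+ samples lay above their V-S+ samples. The third gene called higher was the keratin Krt18, which is also a gene of simple epithelia. Cfc1 (Cryptic), a Nodal co-receptor, went the other way, from 1.41 to 0.75 and from 1.12 to 0.13. Of the 3 that were not called, Sall3, a zinc finger factor, was lower in both clones (-0.33 and -1.14, adjusted p = 0.0739), as was the growth factor Fgf15 (-0.11 and -0.29), and Prdm8, a PR domain protein, had a difference of 0.40. With any 1 of the 4 samples left out the count called higher was 3. The median of the list was 0.40, and 0.77 with the scanner's processed signals. The stretches of the probes that measured the naive and the primed markers were as follows, the first 30 bases of each.
Dppa3: taacctttaaattgtagataggatgcacaa
Nanog: tcttagaagcgtgggtcttggtatacactg
Fgf5: tgcgacccaggagcttaattcgggaatgtg
Pou3f1: tagcgcgcgcggcctggactctttttgttg

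Of 17 named primitive endoderm genes 4 were called higher (Lrp2, Cited1, Serpinh1 and Amot) and none lower, a share near the 25.5% of all named probes called higher. All 17 had a higher value in V+S+ in both clones, as had 39.7% of all probes and 62% of the named ones, and their median was 0.48. Without the fold threshold 11 of the 17 passed the FDR, where 14.5% of all probes passed upward and 8% downward, and 51.5% and 24% of the named probes. Lrp2 (megalin), an endocytic receptor of the visceral endoderm, rose from 1.67 to 2.50 in clone 5.1 and from 1.76 to 3.08 in clone 16.1. Cited1, a transcriptional co-activator, rose from 0.81 to 1.56 and from 1.09 to 2.11. Serpinh1, a chaperone of collagen, rose from -1.46 to -0.78 and from -1.10 to -0.05, and Amot, an angiomotin, from -0.70 to -0.15 and from -0.28 to 0.48. Their V+S+ samples lay above their V-S+ samples.

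Of the markers that define the lineage, Gata6, Sox7 and Dab2 were not called. Gata6, a zinc finger factor, lay at -2.62 and -2.67 in V-S+ and at -2.45 and -2.50 in V+S+, a difference of 0.17 ± 0.11 (SE, adjusted p = 0.307). Sox7 lay at -0.32 and -0.20 in V-S+ and at -0.17 and 0.44 in V+S+, a difference of 0.40 ± 0.14 (SE, adjusted p = 0.0797). Dab2, an endocytic adaptor, lay at -2.66 and -2.39 in V-S+ and at -2.23 and -1.89 in V+S+, and its difference of 0.47 ± 0.11 (SE) passed the FDR (adjusted p = 0.0293) at 1.38-fold. The V+S+ samples lay above the V-S+ samples for these 3 genes, though by little for Gata6 and Sox7. These values depended on the processing. With the scanner's processed signals the differences were 0.52 for Gata6 (adjusted p = 0.0697), 0.77 for Sox7 (adjusted p = 0.0950) and 0.70 for Dab2 (adjusted p = 0.0488), and Dab2 was then called. The authors' values gave the same differences, and with either 6 of the 17 genes were called, with a median of 0.56. Leaving out the V+S+ sample of clone 5.1 raised the count of called genes from 4 to 10, and leaving out each of the other 3 samples gave between 3 and 5.

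Other lineages gave mixed directions. Of 9 named neuroectoderm genes, 1 was called higher and 2 lower. Sox11, a SoxC factor, rose from 0.83 to 1.28 and from 1.21 to 2.09, and Hesx1, a homeobox repressor of the anterior neural plate, fell from 0.89 to 0.13 and from 0.68 to -0.25. The homeobox gene En2 fell from 0.84 to 0.45 and from 1.12 to -0.05. Of 7 named mesoderm genes, 3 were called higher and 1 lower. Meis1, a homeobox cofactor, rose from -2.59 to -1.97 and from -2.43 to -1.59, while Foxc1, a forkhead factor, lay at -3.95 and -3.34 in V-S+ and at -3.36 and -2.44 in V+S+, where the fractions overlapped. Of 5 trophoblast genes, Tcfap2c, an AP-2 factor, was called lower and none higher, and of 4 endothelial and blood genes Flt1, a VEGF receptor, was called higher, though its fractions overlapped. None of the genes of these 4 lists was called by limma when V-S+ or V+S+ of clone 16.1 was left out. Leaving out either sample of clone 5.1 raised the neuroectoderm genes called lower from 2 to 5. With the scanner's processed signals the trophoblast list had 1 gene called higher and none lower, and the median of the mesoderm list was 0.74 in place of 0.33. With V+S+ of clone 5.1 left out 2 trophoblast and 3 endothelial genes were called higher, and with V-S+ of that clone left out none was.

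**Figure D3:**
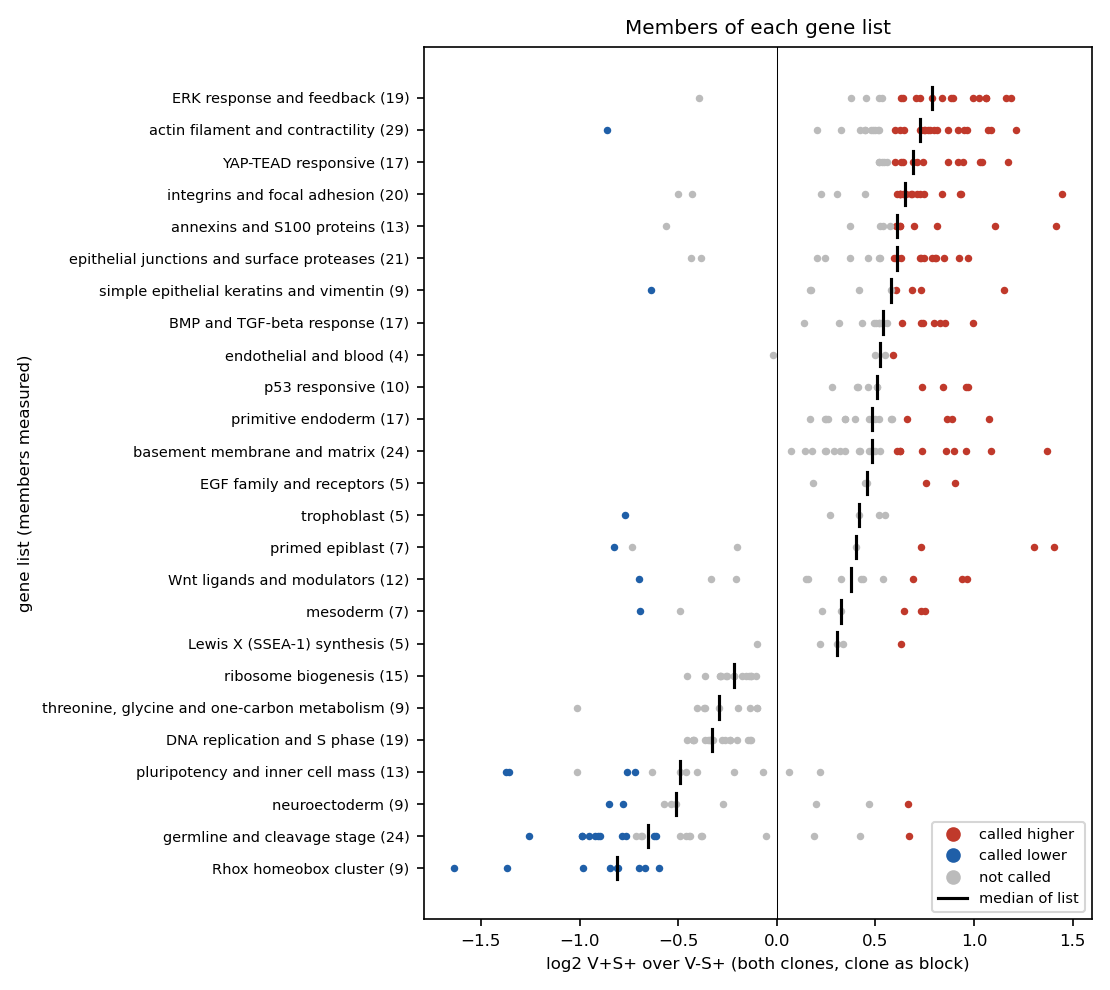
The log2 difference of V+S+ over V-S+ (horizontal axis) for the named members of 25 gene lists; each point is a gene, red called higher, blue called lower and grey not called, the vertical bar is the median of the list, and the number in parentheses counts the members measured. The lists run from a median of -0.81 for the Rhox cluster at the bottom to 0.79 for the ERK response at the top.

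The ERK list, genes induced by or acting back on the MAP kinase ERK, had a median of 0.79, the highest of the 25 lists under this processing. It was 0.74 with the scanner's processed signals or the authors' values, below the EGF family, primed epiblast and mesoderm lists, and 0.62 with V-S+ of clone 16.1 left out, below the actin and YAP-TEAD lists. FGF acts through ERK in ES cells, and ERK activity moves them from the naive state. Of 19 named genes 14 were called higher and none lower, against 25.5% called higher and a median of 0.33 over all named probes. The list was chosen with earlier results of these data known, so the comparison is a description and no test. Among the immediate response genes, Jun, an AP-1 subunit, rose from -2.72 to -1.77 in clone 5.1 and from -2.33 to -1.16 in clone 16.1. Atf3, another bZIP factor, had a difference of 1.00, and Klf6 of 0.89. Among the feedback genes, Dusp6, a phosphatase that inactivates ERK, rose from -1.13 to -0.21 and from -1.04 to 0.16, by 1.06 ± 0.10 (SE). Dusp4 and Dusp5, of the same family, differed by 0.84 and 0.88 and were called too, as was Etv1, an Ets target, at 0.79. Phlda1, a pleckstrin domain protein, rose from -0.99 to 0.04 and from -0.78 to 0.56, and Trib1, a pseudokinase, from -2.11 to -1.06 and from -1.73 to -0.46. For the genes given here by sample the V+S+ values were all above the V-S+ values. Etv5, an Ets factor, went the other way in both clones (-0.22 and -0.58). Its difference of -0.40 passed the FDR (adjusted p = 0.0260) but not the fold threshold. Between 10 and 15 of the 19 were called higher when any 1 of the 4 samples was left out.

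Ligands and receptors of the EGF family that feed ERK were measured by 5 probes, all higher in both clones, of which 2 were called. Of all named probes 62% were higher in both clones and 25.5% were called higher, and 5 probes are too few to set against those shares. Egfr, the receptor, rose from -1.92 to -1.30 and from -1.53 to -0.35. Areg (amphiregulin), a ligand, rose from -3.81 to -3.29 and from -3.71 to -2.72. The ligands Nrg1, Tgfa and Hbegf had differences of 0.46, 0.45 and 0.18. Leaving out V-S+ of clone 16.1 left none of the 5 called, and leaving out V+S+ of that clone left 1. With the scanner's processed signals or the authors' values 4 of the 5 were called, and the median was 0.83 in place of 0.46.

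Genes responsive to YAP and TEAD, the co-activator and DNA-binding factors of the Hippo pathway, which respond to cell shape and attachment, were measured by 17 named probes. Of these 12 were called higher, none lower and 5 neither, and the median was 0.69, where 25.5% of all named probes were called higher and their median was 0.33. Cyr61, a secreted matricellular protein, rose from -2.03 to -1.06 in clone 5.1 and from -1.99 to -0.61 in clone 16.1. Ctgf, of the same protein family, rose from -0.08 to 0.78 and from 0.02 to 1.24. Both had their V+S+ samples above their V-S+ samples. Ptpn14, a phosphatase that restrains YAP, rose from -0.50 to 0.39 and from -0.22 to 0.95, and Thbs1, a thrombospondin, from -1.09 to -0.29 and from -0.81 to 0.29. Ankrd1, a muscle ankyrin repeat protein and reporter of YAP activity, had a difference of 0.87, and Amotl1 and Amotl2, which bind YAP, of 0.92 and 0.74. The count called was 5 and 6 with V-S+ or V+S+ of clone 16.1 left out, and 12 and 17 with those of clone 5.1. It was 8 in the Cy3 channel alone.

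Promoter sequence from RefSeq (GRCm38.p6) was at hand for 15 of these 17 genes. The TEAD motif GGAATG, searched on both strands in the 250 bases before the start of transcription, was found in 8 of the 15 (53.3%), and in 14.4% of the 27025 genes with a promoter sequence. The AP-1 motif TGANTCA was found in 1 of the 15 and in 7.82% of all genes. Among the actin genes described below, 9 of 24 promoters held GGAATG (37.5%). The list was made of genes known to respond to TEAD, so that the match describes it and is not a result of these arrays. Below are 3 promoters that hold the motif, the 250 bases before the start, with GGAATG or its reverse complement in capitals. The Cyr61 promoter (Ccn1 in RefSeq) is chr3:145649986-145650235 on the minus strand, that of Ankrd1 chr19:36119845-36120094 on the minus strand, and that of Ptpn14 chr1:189728018-189728267 on the plus strand.
Cyr61: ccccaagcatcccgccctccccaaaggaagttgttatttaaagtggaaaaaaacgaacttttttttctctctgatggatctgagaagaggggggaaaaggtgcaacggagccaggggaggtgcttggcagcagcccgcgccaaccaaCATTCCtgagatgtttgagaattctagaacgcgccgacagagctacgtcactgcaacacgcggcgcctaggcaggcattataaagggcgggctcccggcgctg
Ankrd1: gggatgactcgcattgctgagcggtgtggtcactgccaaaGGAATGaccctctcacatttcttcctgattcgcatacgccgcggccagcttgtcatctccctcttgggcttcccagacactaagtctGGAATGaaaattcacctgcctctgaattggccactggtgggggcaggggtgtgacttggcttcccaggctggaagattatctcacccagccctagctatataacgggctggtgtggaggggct
Ptpn14: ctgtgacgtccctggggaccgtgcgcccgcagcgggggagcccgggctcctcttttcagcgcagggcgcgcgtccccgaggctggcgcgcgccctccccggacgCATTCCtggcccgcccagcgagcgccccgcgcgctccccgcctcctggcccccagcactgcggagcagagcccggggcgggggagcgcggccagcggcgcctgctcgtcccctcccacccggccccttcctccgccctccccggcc

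Of 17 named genes of the BMP and TGF-beta response, 7 were called higher and none lower, with a median of 0.54, against 25.5% called higher and a median of 0.33 over all named probes. The Id proteins block bHLH factors and are induced by BMP in ES cells. Id1 rose from -0.03 to 0.63 in clone 5.1 and from 0.05 to 1.103 in clone 16.1, by 0.85 ± 0.10 (SE). Id2 rose from -1.27 to -0.50 and from -1.16 to 0.07, by 0.99 ± 0.11 (SE). Their adjusted p values were 0.00389 and 0.00358, and their fractions did not overlap. Tgfb1i1, a focal adhesion adaptor, and Ltbp1, which stores latent TGF-beta in the matrix, differed by 0.83 and 0.80. The count called was 3 and 5 with V-S+ or V+S+ of clone 16.1 left out, and 8 and 14 with those of clone 5.1. Of 12 named Wnt ligands and modulators, 3 were called higher and 1 lower, shares near those of all named probes (25.5% and 8.76%). Wnt4 rose from -1.02 to -0.20 and from -0.80 to 0.32, and Wnt9a from 0.14 to 0.96 and from 0.29 to 1.35, both of them ligands. The receptor Fzd1 rose from -3.05 to -2.45 and from -2.49 to -1.71, and Porcn, which acylates Wnt ligands, fell from 0.90 to 0.58 and from 1.27 to 0.19. Porcn was not called when V-S+ or V+S+ of clone 16.1 was left out, nor with the scanner's processed signals, the authors' values or the 4 samples alone.

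Genes of cell attachment and the cytoskeleton were grouped in 6 lists. Their counts stand against 25.5% of all named probes called higher and 8.76% called lower, with a median of 0.33. Of 20 named integrin and focal adhesion genes, 15 were called higher and none lower (median 0.65). Besides Itga8, Fhl2, a LIM protein of focal adhesions and the nucleus, rose from -1.44 to -0.56 and from -1.26 to -0.28, and Lpp, another LIM protein, from -1.22 to -0.42 and from -1.06 to -0.01. Cav1, the caveola coat protein, rose from -5.42 to -4.87 and from -4.98 to -3.86. For Cav1 the V+S+ value of clone 5.1 lay just above the V-S+ value of clone 16.1 (-4.87 and -4.98), while the fractions lay farther apart for Fhl2 and Lpp. With V-S+ or V+S+ of clone 16.1 left out, 7 and 6 of the 20 were called.

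Of 29 named actin filament and contractility genes, 18 were called higher and 1 lower (median 0.72). Of all named probes 25.5% were called higher and 8.76% lower. Cnn1 (calponin), which binds actin in smooth muscle, rose from -0.37 to 0.70 and from 0.21 to 1.56. Pdlim3, a protein of the Z disc, rose from 0.48 to 1.38 and from 0.80 to 2.08, and Cald1 (caldesmon) from -0.86 to 0.03 and from -0.61 to 0.64. Their V+S+ samples lay above their V-S+ samples. Lima1, an actin cross-linker, was the 1 called lower, with a difference of -0.86. No actin gene was called lower by limma with V-S+ or V+S+ of clone 16.1 left out, with the scanner's processed signals, with the authors' values or in the 4 samples alone. Between 11 and 24 of the 29 were called higher when 1 of the 4 samples was left out. The CArG box, the site of the serum response factor, was found in the promoter windows of 5 of 24 of these genes and in 1.62% of all genes with a promoter sequence. Of the 5, Myl9 and Cnn2 were called higher, Lima1 lower, and Myl6 and Acta1 neither. It was also found in 2 of 16 promoters of the ERK list and 1 of 6 of the Rhox list. The box was searched in the same 250 bases and on both strands, and the match is a description only. Of 13 annexin and S100 genes, 8 were called higher and none lower. Anxa3 rose from -1.77 to -0.57 and from -1.29 to 0.35, and Capn2, a calpain protease, differed by 1.11.

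For the 3 lists that follow, the share of all named probes called higher was 25.5% and their median 0.33. Of 21 named genes of epithelial junctions and surface proteases, 13 were called higher and none lower (median 0.61). Perp, a desmosome protein, rose from 0.49 to 1.32 and from 0.94 to 2.04. The tight junction proteins Marveld3, Ocln and Cldn23 rose from 0.41 to 1.23 and from 0.65 to 1.67, from 0.80 to 1.56 and from 1.18 to 2.03, and from 1.22 to 1.85 and from 1.40 to 2.38. All 4 V+S+ values lay above the V-S+ values of the same gene. The count was 7 and 8 of 21 with V-S+ or V+S+ of clone 16.1 left out. Of 9 named keratins and vimentin, 4 were called higher and 1 lower. Krt19 rose from -0.20 to 0.78 and from 0.05 to 1.36, and Krt18 and Krt8, which pair in simple epithelia, differed by 0.73 and 0.69. Krt23, the 1 called lower with a difference of -0.64, was above background in 3 of 4 V+S+ files. Its difference was -2.12 with the scanner's processed signals or the authors' values, and it was not called with V-S+ or V+S+ of clone 16.1 left out. It was not among the probes above background in all files. Vim (vimentin) had a difference of 0.58 and was not called. Of 24 named basement membrane and matrix genes, 9 were called higher and none lower (median 0.48). Loxl4, a lysyl oxidase, rose from -2.03 to -1.07 and from -1.71 to -0.49, and Lama4, a laminin chain, from 0.31 to 0.96 and from 0.56 to 1.83. With V-S+ or V+S+ of clone 16.1 left out, the counts called higher were 5 and 6 of the matrix genes, 3 and 2 of the keratins and vimentin, and 4 and 5 of the annexin and S100 genes. Under median centring 2 of the keratins and vimentin and 4 of the annexin and S100 genes were called higher.

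Of 10 named p53-responsive genes 4 were called higher and none lower, with a median of 0.51, where 25.5% of all named probes were called higher with a median of 0.33. Pmaip1 (Noxa), a BH3 protein, rose from -0.43 to 0.27 and from -0.18 to 1.04, and Ddit4, an inhibitor of mTORC1, from -0.57 to 0.07 and from -1.20 to -0.17. The count called was 1 and 2 with V-S+ or V+S+ of clone 16.1 left out. None of the 19 DNA replication genes was called by limma, but all 19 were lower in V+S+ in both clones, with a median of -0.33, and 14 passed the FDR without the fold threshold. Of all probes 35.4% were lower in both clones and 8% passed the FDR downward, and of the named probes 33% and 24%. Chek2, a checkpoint kinase, had a difference of -0.45, and Pold2, a polymerase subunit, of -0.42. None of the 15 ribosome biogenesis genes (median -0.22) and none of the 9 genes of threonine, glycine and one-carbon metabolism (median -0.29) was called, and 4 of each passed the FDR downward without the fold threshold. Of 5 genes of Lewis X synthesis, B4galt4, a galactosyltransferase, was called higher at 0.63 (not with V-S+ or V+S+ of clone 16.1 left out), and Fut9, the fucosyltransferase that makes Lewis X, had a difference of -0.10 ± 0.06 (SE). B4galt4 was also not called under median centring, in the Cy3 channel alone or in the 4 samples alone.

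The same pair of Venus gates was available without SSEA-1, in samples that shared no array with the comparison above but came from the same clones and slides. Without SSEA-1, 2642 probes rose with Venus (8.96%) and 980 fell (3.32%), by the same threshold. Of the 1141 probes higher in V+S+, 981 were also called higher in V+S-, which is 86.0% of the first list and 37.1% of the second. Of the 515 lower in V+S+, 404 were also called lower in V+S-, 78.4% and 41.2% of the lists. No probe was called in opposite directions. The difference of the 2 differences was tested directly, and 10 probes were called higher (0.0339%) and 244 lower (0.828%), where lower means a smaller rise or a larger fall in SSEA-1-positive cells. Of the 244, 236 were called higher in V+S-, and 71 in V+S+ as well. This test did not hold across the processing: limma called no probe with the scanner's processed signals, the Cy3 channel alone or the authors' values, with 5115, 5923 and 3422 at an unadjusted p under 0.05, and 2256 under median centring. It fell from 254 to 0 or 1 on leaving out any of 7 of the 8 samples, and leaving out V+S+ of clone 16.1 gave 816.

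**Figure D4:**
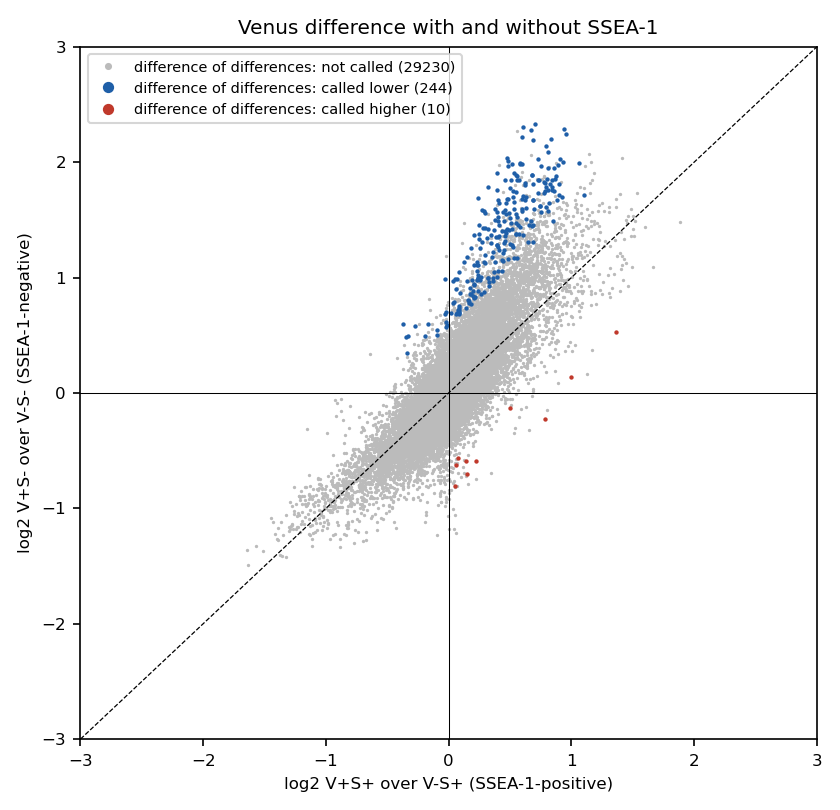
The log2 difference with Venus in SSEA-1-positive cells (V+S+ over V-S+, horizontal axis) and in SSEA-1-negative cells (V+S- over V-S-, vertical axis) for 29484 probes; blue and red mark the 244 and 10 probes for which the 2 differences differed (limma, FDR of 0.05 and 1.5-fold), and the dashed line marks equal differences. The blue points lie above the line, and 236 of the 244 were called higher in V+S- than in its Venus-negative partner.

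Calls on the difference of the 2 differences did not hold across the processing, as given above. The counts by list below describe the processing used here only. Among the 1997 named probes, 163 (8.16%) had a lower difference in SSEA-1-positive cells. Of 24 matrix genes 6 did, as did 4 of 17 primitive endoderm genes, 4 of 17 BMP and TGF-beta genes, 4 of 13 annexin and S100 genes, 4 of 20 integrin and focal adhesion genes, 4 of 29 actin genes, 3 of 9 keratins and vimentin, 3 of 17 YAP-TEAD genes, 3 of 12 Wnt genes and 2 of 5 EGF family genes. The counts were 2 of 19 for ERK genes, 2 of 21 for junction genes, 1 of 10 for p53-responsive genes and 1 of 24 for germline genes. The neuroectoderm, mesoderm, primed epiblast, trophoblast and endothelial lists had 1 each, and the pluripotency, Rhox, DNA replication, ribosome, one-carbon and Lewis X lists had none. The medians of the first 3 of these lists were 0.48, 0.48 and 0.54 in SSEA-1-positive cells and 1.29, 1.28 and 1.47 in SSEA-1-negative cells. Sox7 differed by 0.40 in SSEA-1-positive cells and by 1.76 in SSEA-1-negative cells. The medians in SSEA-1-positive and SSEA-1-negative cells were -0.81 and -0.77 for the Rhox cluster and -0.65 and -0.66 for germline genes. They were -0.49 and -0.72 for pluripotency genes, -0.33 and -0.61 for DNA replication, -0.22 and -0.54 for ribosome biogenesis and -0.29 and -0.57 for threonine, glycine and one-carbon metabolism. The germline median in SSEA-1-positive cells lay between -0.905 and -0.33 under the alternatives run, so its nearness to -0.66 depends on the setting. No Rhox gene passed the test of the difference. Fgf5 and Pou3f1 rose by 1.41 and 1.30 with SSEA-1 and by 1.08 and 0.86 without it, with no call on the difference (adjusted p 0.360 and 0.192). Spon1 went past it the other way, with 1.37 against 0.53.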

How the data were processed

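RNA of 8 samples was measured on two-colour arrays. Each array was scanned 2 times, and the authors deposited the 16 outputs of Agilent Feature Extraction 9.5.1.1, which hold an intensity for each of 43451 spots. They also deposited log10 values of 25164 probes, with their scaling and centring not stated. Mean signals were corrected by normexp (offset of 50) and loess within arrays in limma 3.58.1 (R 4.3.3); control spots and outlier spots (a median of 4 a file) were left out and both scans averaged. Of 42006 probes, 29495 passed the scanner's Cy3 background test in every file of 1 or more fractions; 11 lacked a value and 29484 were tested (lmFit, eBayes, Benjamini-Hochberg). The dye roles, Cy3 sample and Cy5 reference with no dye swap, come from the labels. All 8 samples were fitted with fraction and clone, since both fractions of a clone come from 1 line; over probes the clone difference in V-S+ and in V+S+ correlated with r = 0.606, probes not being independent. Precision is limited by having 2 arrays a fraction, and p-values measure the spread between these samples only.

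The file headers name array design 015087, another number than the methods give. Symbols were taken from the study's list of genes differing among fractions (1997 used, from a copy that lacks some rows); 1611 are current in RefSeq, 271 match a synonym and 115 neither. The members and gene lists, and the block, were chosen with earlier results of these data known. Named were the 12 largest called rises and falls that moved alike in both clones, up to 4 members of each of 25 lists and the genes that the study names; other members are named for their role, after their values were seen. On simulated data (29484 probes, 200 changed by 1 in V+S+ against V-S+) the fit with the block recovered 86% with 3 false calls, and that without it 70% with 2; at a change of 0.8, 76% with 0 and 36% with 0. Alternatives are listed with their effect in the closing part.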

Additional observations from a re-analysis of the deposited data

Results flagged for a closer look

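Of all probes, 10 had a higher and 244 a lower difference with Venus in SSEA-1-positive than in SSEA-1-negative cells, by limma's test of the difference itself. These calls did not hold across the processing, as given in the last part. The 5 named genes of the 10 were picked out after their values were seen. BC017612 stood apart by 1.01 (0.78 with SSEA-1 and -0.22 without), Slc27a2, a fatty acid transporter, by 0.86 (1.00 and 0.14) and Spon1 by 0.84 (1.37 and 0.53). LOC668932 stood apart by 0.81 (0.22 and -0.59) and Tdgf1 (Cripto), a Nodal co-receptor, by 0.69 (0.06 and -0.63), both with a fall in SSEA-1-negative cells. The 5 largest named differences the other way were Itga11 at -1.69, Pcdh18 at -1.63, Prss23 at -1.61, Postn at -1.56 and Adamts4 at -1.51, and Sox7 stood at -1.37. Adjusted p over these 11 genes lay between 0.0357 and 0.0471.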

How the results depend on the processing

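Most alternatives kept the counts of 1141 higher and 515 lower probes within 1.5 times. With no replicate block both counts were 0 (5514 probes at an unadjusted p under 0.05), as they were under the unmoderated test (8537), so that the calls rest on the pairing by clone and on limma's moderation. Fitting only the 4 samples compared, with the block, gave 202 lower; without a fold threshold 4267 were higher and 2359 lower. Leaving out 1 of the 8 samples gave between 522 and 1754 higher and between 61 and 985 lower. Where tested, the 1656 called probes kept their direction under the alternatives run, except 1 under the scanner's processed signals; 1259 of them are in the authors' table and 956 of those were called there. The 254 probes with a different Venus difference by SSEA-1 were 0 with the processed signals, the Cy3 channel alone, the authors' values, no replicate block or the unmoderated test, 2256 under median centring, and between 0 and 816 with 1 sample left out; the cause was not tested. Where 1 sample of a fraction remains, it is assumed to vary like the others. Over 117 genes recomputed under each setting, 301 values lost a call and 28 gained one. Ptprb, at -0.02, turned to 0.0059 with no background correction, 0.0040 on the second scan and lay between -0.19 and 0.15 with 1 sample left out, the highest with V+S+ of clone 5.1 left out. Every list median kept its sign under the alternatives run.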
